A study of Mus musculus with 6 samples.

Results

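The genes that encode the protein subunits of the mitochondrial ribosome were followed in livers of wild-type and Mettl3-deficient mice. The members are the protein-coding genes whose mouse symbol is Mrpl or Mrps followed by a number and an optional letter, 78 genes of 27179 identifiers in the count files. Of these, 49 carry a large subunit symbol (Mrpl) and 29 a small subunit symbol (Mrps). The measurement was RNA-seq of total RNA, depleted of ribosomal RNA, from 6 livers of C57BL/6 mice. The genotype labels name 3 livers wild type and 3 Mettl3-deficient, and Mettl3 encodes the catalytic subunit of the enzyme complex that methylates adenosines in messenger RNA. The sources used here do not say how, or in which cells, Mettl3 was made deficient, nor the animals' age or sex, and they name no treatment. The labels number the livers rep1 to rep3 within each genotype (WT rep1, Mettl3-deficient rep1 and so on) and do not say whether they came from separate litters or days. Every p-value therefore rests on the spread among these 6 livers, which may be technical.

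The mitochondrial ribosome translates the few proteins that mitochondrial DNA encodes, all of them subunits of the respiratory chain and ATP synthase. Its ribosomal RNAs are transcribed inside the organelle, whereas every one of its proteins is made in the cytosol from nuclear genes and imported. Some of these proteins have counterparts in bacterial ribosomes and others are found only in mitochondria. The large subunit forms peptide bonds and the small subunit reads the messenger RNA. Liver is rich in mitochondria, and hepatocytes rely on them for fatty acid oxidation, urea synthesis and gluconeogenesis.

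Levels below are CPM values, in which a count is divided by its library's TMM-scaled total, and a gene was called when the Benjamini-Hochberg adjusted p of edgeR's quasi-likelihood test, over 14380 tested genes, was under 0.05. Total counts ran from 31960205 to 36025772 per library. Mettl3 itself was at 13.4, 14.3 and 12.1 CPM in wild-type and 5.96, 6.60 and 4.94 CPM in Mettl3-deficient livers and was called lower (log2 fold change -1.18 ± 0.20 (SE), adjusted p = 0.00797). Transcripts of Y-linked genes were counted in WT rep1, Mettl3-deficient rep1 and Mettl3-deficient rep2 and were at 0 in the other 3 libraries, so sex is not balanced between the groups. All 22 members called below kept their sign both within the libraries with and within those without Y-linked counts. Because the genotypes did not overlap in any of the 22, every such split had to give this, so it does not speak to sex. In bulk liver, fewer cells of a type and less RNA per cell cannot be told apart.

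More mitochondrial ribosomal protein genes were higher than lower in Mettl3-deficient livers, most of them by less than 2-fold. Of the 77 tested members, 18 were called higher (23.4%, against 13.3% of all tested genes) and 4 were called lower (5.19%, against 10.5%). The 22 called members made up 28.6% of those tested, close to the 23.8% called among all genes. A called change above 2-fold was seen in 6 members, or 7.79%, against 14.9% of all tested genes. The median log2 fold change was 0.12 over the members and 0.01 over all tested genes, and the members' median lay between 0.06 and 0.18 with any 1 library left out. With a covariate for Y-linked counts it was 0.051 (all genes 0.021), with 0.046 for large and 0.067 for small subunit symbols. Within the libraries with and those without Y-linked counts the members' median was 0.086 and 0.054, against 0.019 and 0.023 over all genes. In every one of the 22 called members the 3 wild-type values lay apart from the 3 Mettl3-deficient values. A further 13 members had groups that did not overlap without being called, which brings the share with separate groups to 45.5%, against 45.7% of all tested genes.

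**Figure D1:**
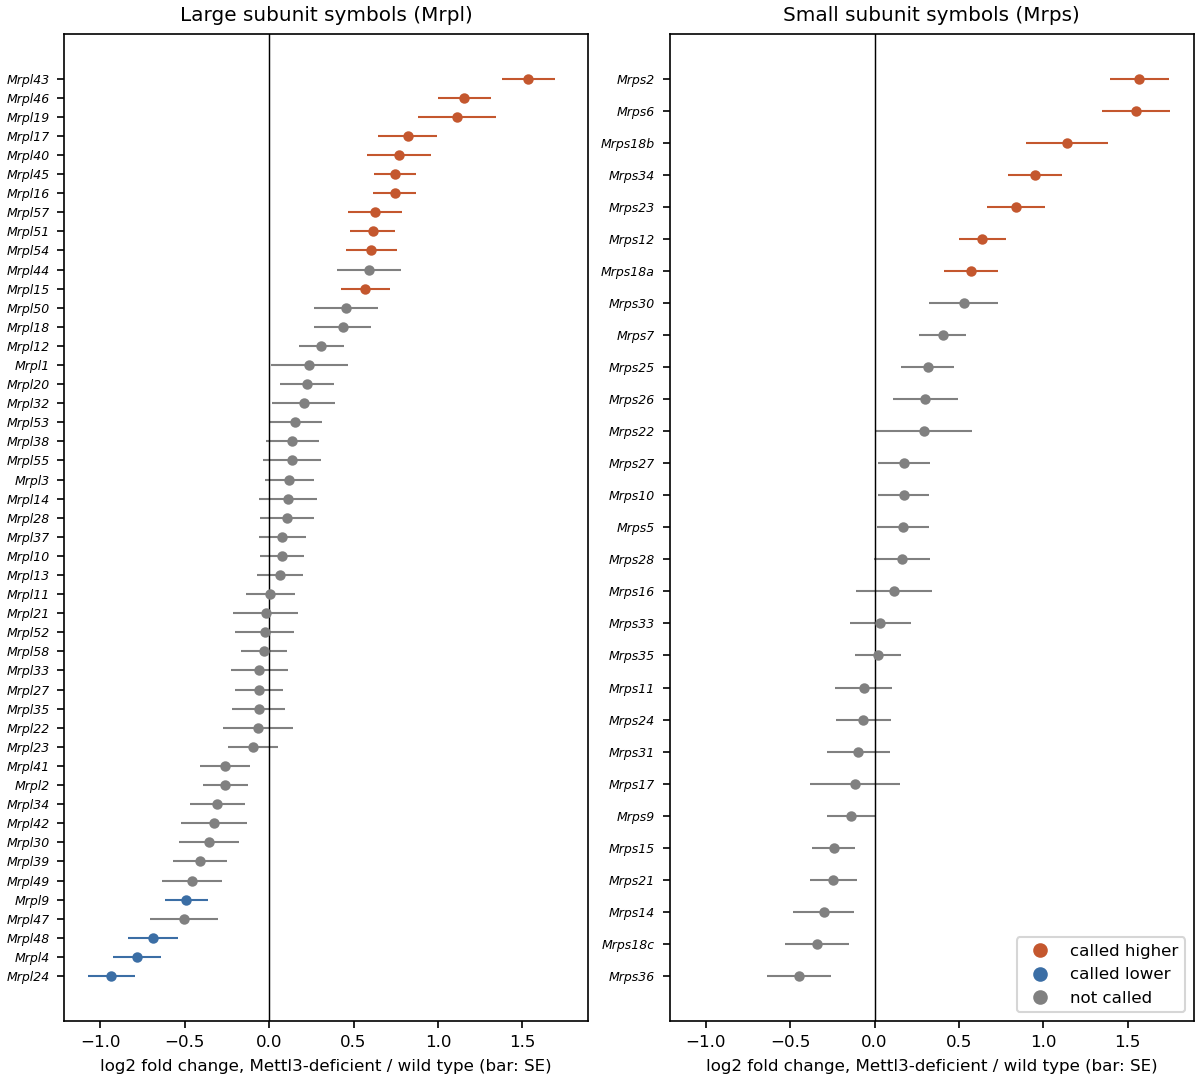
Log2 fold change (Mettl3-deficient over wild type, x axis) of the 77 tested members, ranked within the large subunit (48 genes, left) and small subunit (29 genes, right), with bars giving the SE. Orange points are called higher, blue points called lower and grey points not called, and the range runs from Mrpl24 at -0.94 to Mrps2 at 1.57, with the 4 blue points all among the large subunit symbols.

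Among the large subunit symbols, 11 of 48 tested genes were called higher (22.9%) and 4 lower (8.33%), with a median of 0.09. Among the small subunit symbols, 7 of 29 were called higher (24.1%) and 0 lower, with a median of 0.17. Of all tested genes 13.3% were called higher and 10.5% lower. The higher shares of the subunits were thus near each other. In either direction 31.25% of large and 24.1% of small subunit genes were called, against 23.8% of all tested genes. DESeq2 and limma-voom also called 0 small subunit genes lower, and 1, Mrps36, had an unadjusted p under 0.05 in edgeR in that direction. A positive log2 fold change was measured in 19 of 29 small and 28 of 48 large subunit genes. A direct test of large against small subunit genes was not made, since members share a complex and are not replicates. The symbols follow history rather than structure in 3 cases. The products of Mrps30 and Mrps18a sit in the large subunit of the mammalian mitoribosome, and that of Mrps36 is a subunit of the 2-oxoglutarate dehydrogenase complex. With these genes placed by structure, 12 of 50 large subunit genes were called higher and 4 lower, and 6 of 26 small subunit genes were called higher and 0 lower.

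How many members were called depended on which libraries entered the fit. Without WT rep2, 8 of the 18 higher and 2 of the 4 lower calls held. Without WT rep3 these were 7 and 2, without Mettl3-deficient rep1 they were 9 and 2, and without Mettl3-deficient rep2 they were 13 and 3. Leaving out WT rep1, whose profile stood apart from the other wild-type livers, gave 21 higher and 4 lower calls, which included all 22. The calls over all genes moved in the same way, from 1906 higher and 1514 lower genes to 840 and 585 without WT rep2, 927 and 615 without WT rep3, and 864 and 518 without Mettl3-deficient rep1. Of the 22 members, 9 were called with each library left out, namely Mrpl4, Mrpl16, Mrpl24, Mrpl43, Mrpl45, Mrpl46, Mrps2, Mrps6 and Mrps34.

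Mrps2 encodes the counterpart of bacterial ribosomal protein S2, which sits on the back of the small subunit (Entrez 118451, chr2:28468066-28471178, plus strand, GRCm38). It was at 35.3, 36.1 and 40.6 CPM in the wild-type livers and 103, 134 and 95.9 CPM in the Mettl3-deficient livers. All 3 Mettl3-deficient livers lay above every wild-type liver, and the mean was 2.97-fold higher (log2 fold change 1.57 ± 0.18 (SE), adjusted p = 0.00222). This was the largest change of any member.

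Mrps6 encodes the counterpart of bacterial S6 (Entrez 121022, chr16:92058270-92112227, plus strand). It measured 9.45, 7.28 and 7.95 CPM in the wild-type livers and 24.3, 28.6 and 19.2 CPM in the Mettl3-deficient livers. The groups did not overlap (log2 fold change 1.55 ± 0.20 (SE), adjusted p = 0.00379). Mrps6 shares 18.8% of its exon bases on the same strand with Slc5a3, a myo-inositol transporter gene. Slc5a3 was called lower (log2 fold change -1.49, adjusted p = 0.00933). A further annotated same-strand gene of the locus, which shares 36.1% of the exon bases of Mrps6, was not in the count files. The part of shared reads in the Mrps6 values was not tested.

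Mrps34 and Mrps23 encode mitochondria-specific proteins of the small subunit, and loss of MRPS34 causes Leigh syndrome in humans. Mrps34 (Entrez 79044, chr17:24895116-24897502, plus strand) was at 56.8, 66.0 and 55.6 CPM in the wild-type livers and 123, 122 and 99.9 CPM in the Mettl3-deficient livers. It rose in all 3 Mettl3-deficient livers above the highest wild-type value (log2 fold change 0.95 ± 0.16 (SE), adjusted p = 0.00819). The exons of Mapk8ip3 on the opposite strand cover 62.7% of its exon bases, and Mapk8ip3 was not called (log2 fold change 0.12). Mrps23 was at 24.2, 33.9 and 30.0 CPM in the wild-type livers and 52.2, 58.1 and 47.3 CPM in the Mettl3-deficient livers, again without overlap (log2 fold change 0.84 ± 0.17 (SE), adjusted p = 0.0141). Its call was lost without WT rep3 or Mettl3-deficient rep1, with a highest adjusted p of 0.0521.

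Mrps12 encodes the counterpart of bacterial S12, the protein of the decoding centre in which streptomycin resistance mutations arise in bacteria. Its level was 37.3, 39.4 and 39.7 CPM in the wild-type livers and 66.5, 53.8 and 60.8 CPM in the Mettl3-deficient livers. The groups were separate (log2 fold change 0.64 ± 0.14 (SE), adjusted p = 0.0173), and the call was lost without WT rep2, WT rep3 or Mettl3-deficient rep1, where the adjusted p reached 0.0783.

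The 3 genes for homologues of bacterial S18 were not all called, and differences between them were not tested. Mrps18b was at 8.63, 6.86 and 7.43 CPM in the wild-type livers and 17.2, 21.4 and 11.9 CPM in the Mettl3-deficient livers and was called higher (log2 fold change 1.14 ± 0.24 (SE), adjusted p = 0.0159). Mrps18a, whose product sits in the large subunit, was at 27.7, 24.4 and 21.4 CPM in the wild-type livers and 36.3, 40.5 and 32.5 CPM in the Mettl3-deficient livers and was also called higher (log2 fold change 0.57 ± 0.16 (SE), adjusted p = 0.0379). In both genes the lowest Mettl3-deficient value exceeded the highest wild-type value. Mrps18c measured 30.2, 21.1 and 22.4 CPM in the wild-type livers and 22.2, 18.4 and 17.6 CPM in the Mettl3-deficient livers, with overlapping groups, and was not called (log2 fold change -0.34 ± 0.19 (SE), adjusted p = 0.214). The calls of Mrps18a and Mrps18b were lost without WT rep2, WT rep3 or Mettl3-deficient rep1, and that of Mrps18a also without Mettl3-deficient rep2, with adjusted p up to 0.134 for Mrps18a and 0.0632 for Mrps18b. An antisense transcript not in the count files covers 59.1% of the exon bases of Mrps18b.

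**Figure D2:**
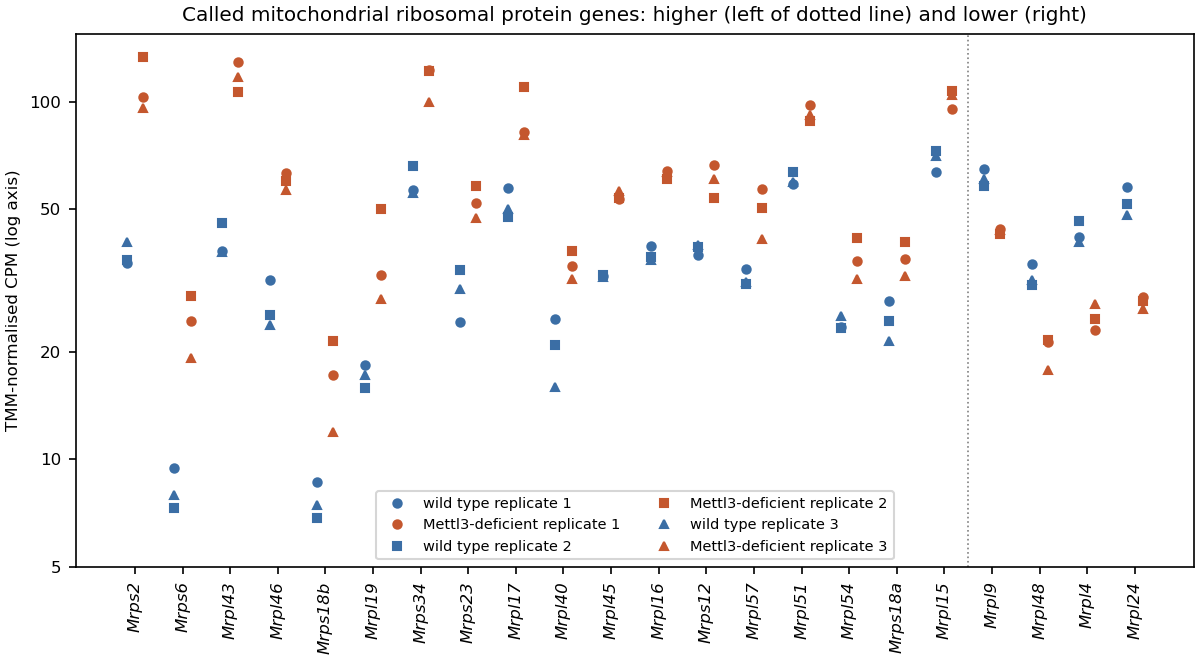
TMM-normalised CPM (y axis, log scale) in each of the 6 livers for the 22 called members, ordered by log2 fold change along the x axis, with blue for wild type, orange for Mettl3-deficient and the marker shape for the replicate. In each gene the blue and orange points are separate, with orange above blue for the 18 genes left of the dotted line and below for the 4 genes right of it.

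Mrpl43, which encodes a mitochondria-specific protein, changed most among the large subunit genes (Entrez 94067, chr19:45004829-45006442, minus strand). It was at 38.3, 45.7 and 38.0 CPM in the wild-type livers and 129, 107 and 117 CPM in the Mettl3-deficient livers. The groups lay far apart, and the mean was 2.90-fold higher (log2 fold change 1.54 ± 0.16 (SE), adjusted p = 0.00174). Mrpl43 shares 27.5% of its exon bases with Twnk, the mitochondrial DNA helicase gene on the opposite strand. Twnk was not called (log2 fold change -0.21, adjusted p = 0.379).

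Mrpl46, Mrpl40, Mrpl48 and Mrpl38 are among the genes whose products build the central protuberance, the crown of the large subunit. In mammalian mitochondria it holds a transfer RNA in place of 5S ribosomal RNA. These genes were picked after their values were seen and are not the full set for this structure. Their calls therefore give no share for it. Mrpl46 (Entrez 67308, chr7:78775236-78783531, minus strand) was at 31.8, 25.2 and 23.7 CPM in the wild-type livers and 63.1, 60.0 and 56.8 CPM in the Mettl3-deficient livers and was called higher (log2 fold change 1.16 ± 0.16 (SE), adjusted p = 0.00428). Mrpl40 was at 24.6, 20.9 and 15.9 CPM in the wild-type livers and 34.7, 38.3 and 31.9 CPM in the Mettl3-deficient livers and was also called higher (log2 fold change 0.77 ± 0.19 (SE), adjusted p = 0.0248), but not without WT rep2, WT rep3, Mettl3-deficient rep1 or Mettl3-deficient rep2, with adjusted p up to 0.0784. Mrpl48 went the other way, from 35.2, 30.7 and 31.8 CPM in wild-type to 21.2, 21.6 and 17.8 CPM in Mettl3-deficient livers (log2 fold change -0.69 ± 0.15 (SE), adjusted p = 0.0166). Its call was lost without WT rep2, WT rep3 or Mettl3-deficient rep1, with adjusted p up to 0.0581. Mrpl38, at 65.5, 70.4 and 72.7 CPM in the wild-type livers and 78.8, 85.6 and 65.0 CPM in the Mettl3-deficient livers, had overlapping groups and was not called (log2 fold change 0.14 ± 0.15 (SE), adjusted p = 0.54). Neighbours in the same structure were thus called in both directions.

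Several large subunit members lie along the tunnel through which the growing peptide leaves, again a group picked after its values were seen. Mrpl45, whose product faces the inner membrane at the tunnel exit, was at 32.5, 32.7 and 32.4 CPM in the wild-type livers and 53.4, 53.9 and 56.2 CPM in the Mettl3-deficient livers (Entrez 67036, chr11:97315716-97329920, plus strand). The 3 wild-type livers spanned less than 1 CPM, and the gene was called higher (log2 fold change 0.74 ± 0.12 (SE), adjusted p = 0.00798). Mrpl17, a bacterial L17 counterpart, was at 57.3, 47.6 and 49.97 CPM in the wild-type livers and 82.3, 110.1 and 80.8 CPM in the Mettl3-deficient livers and was called higher (log2 fold change 0.82 ± 0.17 (SE), adjusted p = 0.0161), with the call lost without WT rep2 or WT rep3 (adjusted p up to 0.0714).

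Mrpl24 and Mrpl4, the counterparts of bacterial L24 and L4, were the most strongly lowered members. Mrpl24 (Entrez 67707, chr3:87919506-87923672, plus strand) fell from 57.9, 51.8 and 48.1 CPM in the wild-type livers to 28.4, 27.8 and 26.3 CPM in the Mettl3-deficient livers (log2 fold change -0.94 ± 0.14 (SE), adjusted p = 0.00545). Rrnad1 on the opposite strand covers 48.5% of its exon bases and was not called (log2 fold change -0.40, adjusted p = 0.10). Mrpl4 (Entrez 66163, chr9:21002738-21008839, plus strand) fell from 42.0, 46.3 and 40.5 CPM to 22.9, 24.7 and 27.2 CPM (log2 fold change -0.78 ± 0.14 (SE), adjusted p = 0.00961). In neither gene did the groups overlap. Mrpl22, Mrpl23 and Mrpl47, which encode further tunnel proteins, were not called, with log2 fold changes of -0.07, -0.10 and -0.50. Mrpl9, the counterpart of bacterial L9, was called lower at 64.7, 58.0 and 60.7 CPM in the wild-type livers and 44.1, 42.8 and 43.7 CPM in the Mettl3-deficient livers (log2 fold change -0.49 ± 0.13 (SE), adjusted p = 0.0299). Its call was lost in the fits without WT rep2, WT rep3, Mettl3-deficient rep1 or Mettl3-deficient rep2 (adjusted p up to 0.105). It was also lost when no filter on low counts was applied (0.0518) and with a replicate block (0.0675).

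The 4 lower calls also depended on the scaling. Scaling by library size alone, with no correction for composition, moved the all-gene median from 0.01 to 0.49. On that scale the values of Mrpl24, Mrpl4, Mrpl48 and Mrpl9 were -0.46, -0.31, -0.21 and -0.02, none of them called, though each stayed below the median of all genes. The 18 higher calls all held on that scale, among 43 members called higher, and the members' median was 0.59.

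The other higher large subunit genes were spread over the structure. Mrpl19, a bacterial L19 counterpart, was at 18.3, 15.8 and 17.2 CPM in the wild-type livers and 32.7, 50.3 and 28.0 CPM in the Mettl3-deficient livers (log2 fold change 1.11 ± 0.23 (SE), adjusted p = 0.0147). Mettl3-deficient rep2 lay well above the other livers of its group, and the call was lost without WT rep2 or WT rep3 (adjusted p up to 0.0595). Mrpl16, the L16 counterpart near the peptidyl transferase centre, was at 39.5, 36.9 and 36.1 CPM in the wild-type livers and 63.9, 61.0 and 63.4 CPM in the Mettl3-deficient livers (log2 fold change 0.74 ± 0.13 (SE), adjusted p = 0.00855), with every Mettl3-deficient liver above every wild-type liver. The mitochondria-specific Mrpl57, Mrpl51 and Mrpl54, and Mrpl15, an L15 counterpart, had log2 fold changes of 0.63, 0.61, 0.61 and 0.57, and each lost its call without WT rep2, WT rep3 or Mettl3-deficient rep1, and all but Mrpl51 also without Mettl3-deficient rep2 (adjusted p up to 0.113, 0.0791, 0.0927 and 0.0933). Of these, Mrpl57 was at 34.1, 30.9 and 31.4 CPM in the wild-type livers and 57.2, 50.3 and 41.2 CPM in the Mettl3-deficient livers. Mrpl44, whose product has a ribonuclease III fold and whose human counterpart is mutated in a cardiomyopathy, was at 32.1, 22.4 and 22.8 CPM in the wild-type livers and 35.5, 44.4 and 36.4 CPM in the Mettl3-deficient livers. Its groups were separate, but it missed the threshold (log2 fold change 0.59 ± 0.19 (SE), adjusted p = 0.057).

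The remaining members chosen for a known role were not called. Mrpl10, Mrpl11 and Mrpl12 form the stalk region that recruits translation factors, and their log2 fold changes were 0.08, 0.01 and 0.31. Mrpl12 was at 58.0, 54.3 and 50.9 CPM in the wild-type livers and 70.5, 66.6 and 65.0 CPM in the Mettl3-deficient livers, without overlap and without a call (adjusted p = 0.123). Mrpl58, which releases peptides from stalled ribosomes, stood at 35.3, 37.4 and 39.0 CPM in the wild-type livers and 37.0, 39.1 and 33.2 CPM in the Mettl3-deficient livers, with overlapping groups (log2 fold change -0.03 ± 0.14 (SE)). Mrpl3, the counterpart of bacterial L3, had a log2 fold change of 0.12. Mrps30 was at 33.5, 27.7 and 25.5 CPM in the wild-type livers and 42.8, 50.6 and 31.6 CPM in the Mettl3-deficient livers, with overlapping groups and no call (adjusted p = 0.0964). Mrps36 was at 13.9, 13.6 and 14.2 CPM in the wild-type livers and 12.2, 8.35 and 10.1 CPM in the Mettl3-deficient livers, a separation that also missed the threshold (log2 fold change -0.45 ± 0.19 (SE), adjusted p = 0.117). In all, 30 of the 55 uncalled members had a log2 fold change between -0.2 and 0.2.

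By evolutionary origin, 11 of the 31 tested mitochondria-specific members were called higher and 1 lower, with a median log2 fold change of 0.30. These shares are 35.5% and 3.23%, against 13.3% and 10.5% of all tested genes. Of the 45 tested members with a bacterial counterpart, 7 were called higher (15.6%) and 3 lower (6.67%), with a median of 0.06, and their 22.2% called in either direction is near the 23.8% of all genes. In this division Mrps18a and Mrps18b, though homologues of S18, stand with the mitochondria-specific proteins, since Mrps18c alone takes the place of S18. With all 3 placed among the bacterial counterparts, a choice made after seeing the data, the higher calls were 9 of 29 (31.0%) mitochondria-specific and 9 of 47 (19.1%) other members, with medians of 0.29 and 0.08. These are counts over linked genes, chosen with earlier results of these data known, and the difference was not tested.

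Levels per kilobase of exon differed widely among members, although each intact ribosome holds most of these proteins in equal number. Per kilobase, the wild-type and Mettl3-deficient means ± SD (n = 3) were 103 ± 11.4 and 101 ± 18.2 CPM for Mrpl52, 93.5 ± 15.8 and 101 ± 10.8 for Mrpl14, 90.7 ± 5.63 and 76.6 ± 6.24 for Mrps21 and 64.8 ± 6.20 and 125 ± 14.3 for Mrps34. These had the highest mean over both genotypes in their subunit symbols, and only Mrps34 was called among them. The lowest tested means over both genotypes were those of Mrps25 at 2.25 ± 0.0712 and 2.79 ± 0.343, Mrps17 at 3.40 ± 0.17 and 3.14 ± 0.685 and Mrpl47 at 4.41 ± 0.663 and 3.11 ± 0.536 CPM per kilobase. None of the 3 was called. In wild-type livers alone the lowest tested large subunit gene was Mrpl19, called higher, at 3.42 ± 0.256 and 7.40 ± 2.35 CPM per kilobase. Mrpl36 had 4, 1 and 3 counts in the wild-type and 1, 0 and 1 counts in the Mettl3-deficient libraries and was not tested. Nr2c2 on the opposite strand covers 75.6% of the exon bases of Mrps25. The median wild-type level was 17.8 CPM per kilobase over the 18 higher members, 35.6 over the 4 lower members and 28.1 over the 55 uncalled members. For large subunit symbols it was 16.4 over higher and 37.0 over uncalled members, and for small subunit symbols 20.6 and 19.1. Median exon lengths of higher and uncalled members were 2431 and 1223 bases for large and 933 and 1313 bases for small subunit symbols. Exon length divides these levels, and its part in the difference was not tested. The wild-type level is also the denominator of the fold change behind the calls. Higher members are thus drawn towards low and lower members towards high wild-type levels by construction, so these medians do not link level to call.

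**Figure D3:**
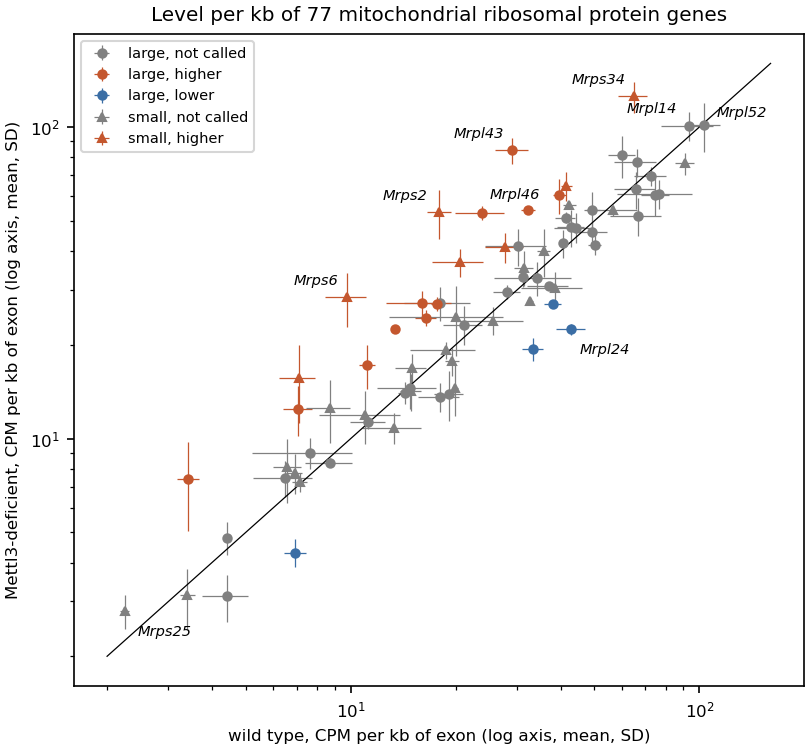
Mean CPM per kilobase of exon in wild-type (x axis) and Mettl3-deficient livers (y axis), both on log scales, for the 77 tested members, with bars giving the SD over 3 livers, circles for large and triangles for small subunit symbols. Most points lie along the line of equal level, and Mrps2, Mrpl43, Mrps6 and Mrpl46 lie above it, with Mrpl24 below.

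Summed over all members, TMM-normalised CPM was 3065, 2800 and 2673 in the wild-type and 3489, 3508 and 3173 in the Mettl3-deficient livers. The groups were separate, with Mettl3-deficient rep3 the nearest to the wild-type livers. In raw counts the members took 0.270%, 0.231% and 0.224% of the wild-type libraries and 0.406%, 0.440% and 0.355% of the Mettl3-deficient libraries. This wider gap comes from the raw share, which the TMM factors (0.825 to 0.881 in wild-type and 1.12 to 1.25 in Mettl3-deficient libraries) narrow.

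The balance between the subunits was described by summed levels, first with all members included, and no test was made on it. Per kilobase of exon, summed small subunit levels were 756, 705 and 669.7 CPM in wild-type and 912, 925 and 805 CPM in Mettl3-deficient livers. The groups did not overlap. Summed large subunit levels were 1785, 1610 and 1515 CPM in wild-type and 1857, 1792 and 1687 CPM in Mettl3-deficient livers, where WT rep1 lay above Mettl3-deficient rep3. The large to small ratio was 2.36, 2.28 and 2.26 in wild-type and 2.04, 1.94 and 2.09 in Mettl3-deficient livers, also without overlap. For single tested genes, the share with groups that did not overlap was 45.7%. Without Mrps2 and Mrps34, a choice made after seeing the data, the ratio was 2.64, 2.61 and 2.57 in wild-type and 2.55, 2.46 and 2.59 in Mettl3-deficient livers, and the groups overlapped. Mean over mean, the ratio in Mettl3-deficient livers was 0.879 of that in wild-type livers with all members and 0.973 without these genes. Taking raised genes out of the small subunit alone moves the ratio towards equality by construction, so these values do not show that the balance rests on this pair.

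**Figure D4:**
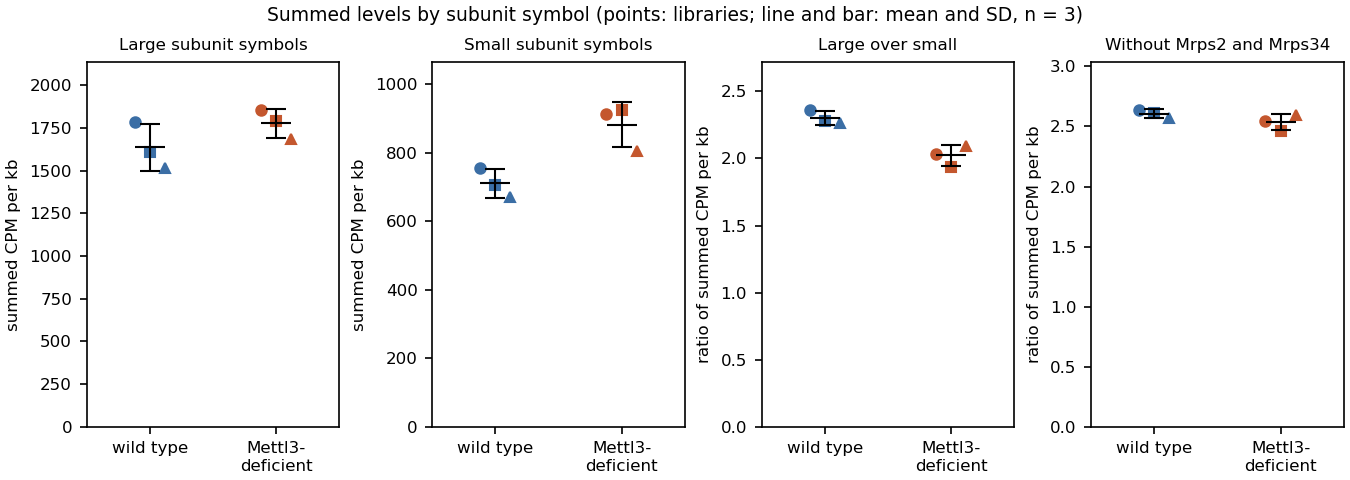
Summed CPM per kilobase of exon of the large and of the small subunit symbols (left panels), then the ratio of large to small and the same ratio without Mrps2 and Mrps34 (right panels), for each liver (points), with the mean and SD (n = 3). The ratio is lower in all 3 Mettl3-deficient livers with every member included, at 1.94 to 2.09 against 2.26 to 2.36, and overlaps without the named pair.

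The median coefficient of variation between livers of a group was 9.57% in wild-type and 11.1% in Mettl3-deficient livers over the members, against 19.1% and 19.2% over all tested genes, with genes of low counts included in the latter. WT rep1 had the highest wild-type value in 51 of 77 members (66.2%, against 42.6% of all tested genes). Mettl3-deficient rep3 had the lowest value of its group in 51 of 77 (66.2%, against 38.0%). Members thus ranked livers alike within a genotype, and Mettl3-deficient rep3, the only Mettl3-deficient library without Y-linked counts, was among the livers nearest the other genotype.

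Many members share a start region with a gene on the opposite strand. In 32 pairs the annotated starts lie within 1000 bases of each other, head to head, and in 29 of these both genes were tested. In 15 pairs neither gene was called, and in 10 only 1 was. Both genes were called in 4 pairs. For single genes, the share called was 23.8% of all tested. Mrpl57 and Ska3, a kinetochore gene, both rose, with log2 fold changes of 0.63 and 3.40. Ska3 was near the floor, at 0.07, 0.21 and 0.30 CPM in the wild-type and 3.10, 1.70 and 1.37 CPM in the Mettl3-deficient livers. Mrpl48 and Rab6a, a vesicle transport GTPase gene, both fell, by 0.69 and 0.56 on the log2 scale. Exons of Rab6a on the opposite strand cover 8.58% of the exon bases of Mrpl48, and the part of shared reads was not tested. In the other pairs the genes went in opposite directions: Mrpl54 rose by 0.61 where Apba3 fell by 0.63, and Mrps34 rose by 0.95 where Eme2, a DNA repair nuclease gene, fell by 1.42. Mrpl46 and Mrps11 are both members and start 412 bases apart. Mrpl46 was called higher while Mrps11, at 16.1, 16.5 and 14.5 CPM in the wild-type livers and 16.5, 15.8 and 12.7 CPM in the Mettl3-deficient livers, had overlapping groups (log2 fold change -0.07 ± 0.17 (SE)). Mrpl43 and Twnk start 779 bases apart and had log2 fold changes of 1.54 and -0.21. Mrpl27 was at -0.06, not called, beside Eme1, a gene of the same repair family as Eme2, at 2.73, called higher. Eme1 was also near the floor, at 0.07, 0.14 and 0.18 CPM in the wild-type and 1.29, 0.49 and 0.91 CPM in the Mettl3-deficient livers.

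**Figure D5:**
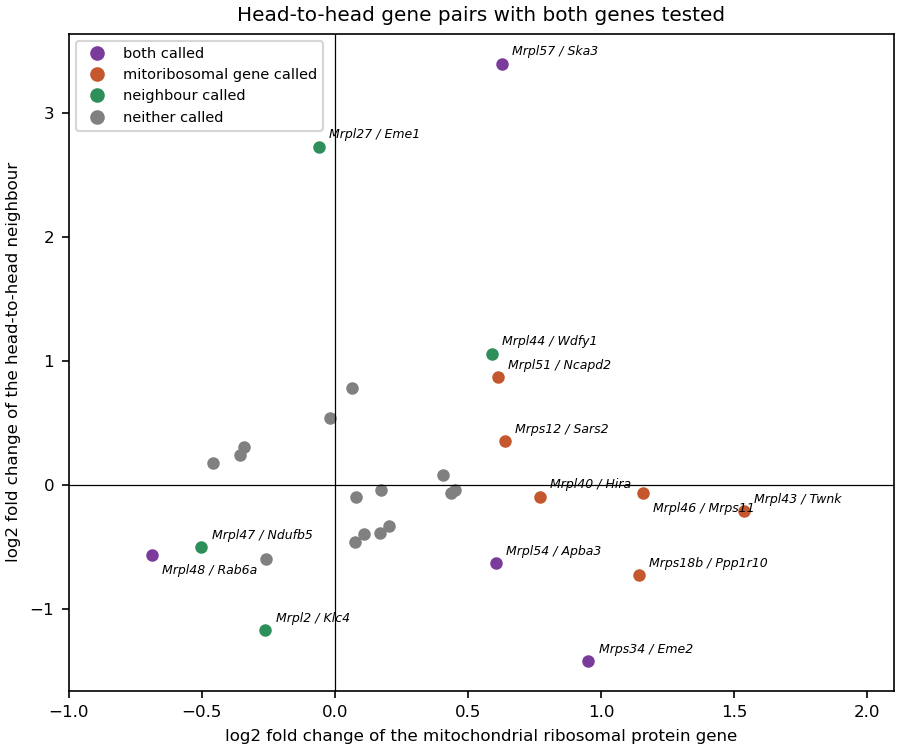
Log2 fold change (Mettl3-deficient over wild type) of each mitochondrial ribosomal protein gene (x axis) and its head-to-head neighbour (y axis) for the 29 pairs with both genes tested, coloured by which gene of the pair was called. The 4 purple points, called in both genes, fall in 3 quadrants, with Mrpl57 and Ska3 at upper right, Mrpl48 and Rab6a at lower left, and Mrpl54 with Apba3 and Mrps34 with Eme2 at lower right.

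Promoter letters were read from the RefSeq promoter table (GRCm38.p6), 250 bases before to 50 bases after each annotated start, which matched 69 members. The core letters of motifs linked to mitochondrial genes were searched on both strands. The ETS core CCGGAAGT, bound by GABP among others, was found in 12 members (17.4%, against 4.31% of all genes and 8.57% of tested genes). The YY1 core AAGATGGC was found in 12 (17.4%, against 3.19% and 4.93%) and the NRF1 core GCGCATGC in 8 (11.6%, against 3.05% and 5.60%). The E-box CACGTG was found in 5 (7.25%, against 8.09% and 11.5%) and CCAAT in 27 (39.1%, against 41.1% and 42.6%). Of the 14 higher members with a promoter in the table, 2 held the ETS, 2 the YY1, 2 the NRF1 and 2 the CCAAT letters, and 0 the E-box. Among the 51 uncalled members these were 9, 9, 5 and 24, and 4 held the E-box. Only 3 lower members had a promoter in the table, of which 1 held the ETS and 1 the NRF1 letters. A match describes letters in this window and no binding was measured.

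The 100 bases before the start are shown for the most changed members whose window meets no annotated exon, and for Mrps22, an uncalled member with the same ETS letters as Mrpl43. Capitals mark the motifs named above, on either strand.
Mrps2 (chr2:28467966-28468065, plus strand): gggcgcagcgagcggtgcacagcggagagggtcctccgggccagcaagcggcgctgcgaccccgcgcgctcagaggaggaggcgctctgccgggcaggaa
Mrps23 (chr11:88204288-88204387, plus strand): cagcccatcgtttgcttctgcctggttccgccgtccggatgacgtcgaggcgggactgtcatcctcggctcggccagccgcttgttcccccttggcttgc
Mrps12 (chr7:28741822-28741921, minus strand): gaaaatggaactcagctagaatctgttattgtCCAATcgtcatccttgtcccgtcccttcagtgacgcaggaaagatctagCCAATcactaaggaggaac
Mrpl45 (chr11:97315616-97315715, plus strand): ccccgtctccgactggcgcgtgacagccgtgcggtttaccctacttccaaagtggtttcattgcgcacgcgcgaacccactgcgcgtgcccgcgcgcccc
Mrpl43 (chr19:45006443-45006542, minus strand): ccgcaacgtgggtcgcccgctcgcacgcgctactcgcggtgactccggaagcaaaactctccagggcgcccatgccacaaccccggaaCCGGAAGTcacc
Mrps22 (chr9:98601680-98601779, minus strand): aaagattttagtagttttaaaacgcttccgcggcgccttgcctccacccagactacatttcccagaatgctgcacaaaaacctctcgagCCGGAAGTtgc
Mrpl48 (chr7:100583131-100583230, minus strand): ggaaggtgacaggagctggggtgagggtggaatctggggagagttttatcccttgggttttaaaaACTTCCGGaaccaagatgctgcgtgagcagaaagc
Mrpl48 (chr7:100608302-100608401, minus strand): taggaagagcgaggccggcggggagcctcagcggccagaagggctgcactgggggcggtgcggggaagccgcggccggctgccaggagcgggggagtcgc
The windows of Mrps2, Mrps23 and Mrpl45, all called higher, hold none of the 5 motifs. Mrps12, called higher, holds CCAAT in 2 places. The ETS letters stand near the start in Mrpl43, which was called higher at 1.54, and in Mrps22, which was at 34.0, 19.9 and 18.3 CPM in the wild-type livers and 35.0, 32.3 and 21.0 CPM in the Mettl3-deficient livers with overlapping groups (log2 fold change 0.29 ± 0.29 (SE)). Mrpl48, called lower, holds them on the other strand, before the start of a shorter annotated transcript, while the 100 bases before the start of its full-length transcript, the last shown, hold none of the 5 motifs.

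Exon overlap limits some of these values, because the sources used here do not give the strand setting of the counting. Without strand, reads of a gene and its antisense partner cannot be told apart. At least 10% of exon bases are shared with another annotated gene in 20 members. The called ones among them are Mrps34, Mrps18b, Mrpl24, Mrpl19, Mrps6 and Mrpl43. Mrpl53 lies wholly within a same-strand gene model that was not in the count files and was not called (0.15).

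Genes that work with the mitochondrial ribosome were counted with the same calls. In either direction 23.1% of assembly factors, 14.3% of translation factors, 33.3% of transcription and replication genes, 15.4% of import genes and 22.2% of biogenesis regulators were called, against 23.8% of all tested genes, on lists of 9 to 26 genes. Of 26 assembly factors, 4 were called higher and 2 lower, with a median log2 fold change of 0.13. Ddx28, an RNA helicase of large subunit assembly, was at 14.4, 17.5 and 15.9 CPM in the wild-type livers and 54.5, 80.1 and 60.6 CPM in the Mettl3-deficient livers, without overlap (log2 fold change 2.03 ± 0.19 (SE), adjusted p = 0.00121). Mrm3, which methylates the large ribosomal RNA of mitochondria, had a log2 fold change of 1.65, Ngrn, which binds that RNA, 0.88, and Mettl15, a small subunit RNA methyltransferase, 0.83. Mterf3 and Mpv17l2 fell by 0.79 and 0.75 on the log2 scale. The calls of Mettl15 and Mpv17l2 were lost in 5 of the 6 fits that left out a library, with adjusted p up to 0.142 and 0.152. Of the 5 mitoribosomal proteins with other symbols, Gadd45gip1, a large subunit protein, was called higher (0.70), while Dap3, Ptcd3, Chchd1 and Aurkaip1 were not called, with log2 fold changes between -0.28 and 0.12. Gadd45gip1 lost its call without WT rep2, WT rep3, Mettl3-deficient rep1 or Mettl3-deficient rep2 (adjusted p up to 0.0891).

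Among 14 mitochondrial translation factors, the elongation factor gene Tsfm was called higher (1.03) and the initiation factor gene Mtif3 lower (-0.64), with a median of -0.03. Among 9 transcription and replication genes, Tefm was called higher (0.95), and Polg2 (-1.64) and Mterf1a (-1.33) lower. Of 13 import and chaperone genes, Timm17a (0.90) and Hspd1 (0.86) were called higher. Of 9 regulators of mitochondrial biogenesis, Myc (2.41) and Gabpb1 (0.70) were called higher, and Nrf1 (0.29), Gabpa (-0.03), Yy1 (-0.35) and Ppargc1a (-0.46) were not called. Myc was at 1.74, 7.43 and 8.80 CPM in the wild-type livers and 27.7, 48.2 and 19.7 CPM in the Mettl3-deficient livers, with every Mettl3-deficient liver above the wild-type range. Of these calls, those of Tsfm, Polg2 and Timm17a held with each library left out. Those of Myc and Gabpb1 were lost without WT rep2, WT rep3, Mettl3-deficient rep1 or Mettl3-deficient rep2 (adjusted p up to 0.0934 and 0.0997), that of Tefm without WT rep2 (0.0587), and that of Mtif3 without WT rep2, Mettl3-deficient rep1 or Mettl3-deficient rep2 (up to 0.0911). Mterf1a and Hspd1 each lost theirs in 5 of 6 such fits (up to 0.114 and 0.115).

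The products and relatives of the complex gave other counts. Called in either direction were 13.3% of the tested genes of mitochondrial DNA and 1.28% of cytosolic ribosomal protein genes. For nuclear respiratory chain and ATP synthase genes this was 21.8%, and for all tested genes 23.8%. Of 15 tested genes of mitochondrial DNA, ND1 was called higher (1.03) and the ribosomal RNA gene mt-Rnr2 lower (-1.35), the latter in libraries from which ribosomal RNA was removed. The call of ND1 was lost without WT rep2, WT rep3 or Mettl3-deficient rep1 (adjusted p up to 0.135). Of 78 tested cytosolic ribosomal protein genes, 1 was called higher and 0 lower by edgeR, and DESeq2 called 6 and 0. In edgeR 13 had an unadjusted p under 0.05 in the higher and 0 in the lower direction. Their median log2 fold change was 0.36, with 72 of 78 values above 0, against 7285 of 14380 over all tested genes. Of 78 tested nuclear genes for respiratory chain and ATP synthase subunits, 3 were called higher (3.85%, against 13.3% of all tested genes). Lower calls were 14 (17.9%, against 10.5%). Their median was -0.37, and the groups did not overlap in 57 of the 78, against 45.7% of all tested genes. DESeq2 called 31 lower, and between 1 and 9 were called lower by edgeR with any 1 library left out. The mitoribosomal median of 0.12 thus lay between those of these classes, and differences between classes were not tested.

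Markers of other cell types were counted with the same calls. All 6 markers of proliferating cells were called higher, and their summed level was 5.86 to 19.8 CPM in wild-type and 73.8 to 122 CPM in Mettl3-deficient livers. The 6 hepatocyte markers, of which 2 were called lower (33.3%, against 10.5% of all tested genes), summed to 132558 to 167857 CPM in wild-type and 44329 to 70896 CPM in Mettl3-deficient livers. Most of this sum is Alb, at 108639, 139045 and 141166 CPM in wild-type and 48739, 32061 and 53329 CPM in Mettl3-deficient livers. The log2 fold changes of the 6 ran from -1.54 for Alb to -0.59 for Cps1, and 4 were not called. Of 6 macrophage markers 1 was called higher (55.6 to 232 against 208 to 359 CPM), of 6 cholangiocyte markers 1 higher (84.5 to 109 against 76.1 to 225 CPM), and of 6 endothelial markers 1 lower (131 to 203 against 121 to 157 CPM). In each of these lists 1 marker is 16.7%, against 13.3% of all tested genes called higher and 10.5% called lower. Stellate cell markers (159 to 274 against 192 to 392 CPM), lymphocyte markers (2.58 to 2.84 against 3.90 to 4.21 CPM) and neutrophil markers (1 of 2 tested higher, 0.849 to 2.14 against 2.31 to 4.69 CPM) were measured too, with 1 neutrophil marker, Ly6g, at 0 in all libraries. None of the 7 stellate cell and 6 lymphocyte markers was called by edgeR, DESeq2 or limma-voom, and 0 and 1 of them had an unadjusted p under 0.05. The summed levels of the proliferating cell, hepatocyte, lymphocyte and neutrophil markers did not overlap between the genotypes, and those of the other lists did. Of single tested genes, 45.7% had groups that did not overlap. Among the 6 lymphocyte markers 4 had a log2 fold change above 0, while Cd79a (-0.08) and Ms4a1 (-0.30) were below. The 2 tested neutrophil markers were above 0. The untested Mpo and Elane had mean levels of 0.099 and 0.31 CPM in wild-type and 0.050 and 0.025 CPM in Mettl3-deficient livers. The part of these cell types in the differences of the mitoribosomal genes was not tested.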

How the data were processed

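Per the labels' protocols, RNA of frozen livers was extracted with TRIzol, depleted with Ribo-Zero Gold and made into directional libraries. The authors deposited raw counts per gene, 1 table per library, under Entrez identifiers. Per the submitters' processing notes they used HISAT2, featureCounts and mm10, whose versions, annotation and strand setting the sources used here do not give. Symbols came from RefSeq (GRCm38.p6), which matched 25275 of 27179 identifiers, and exon lengths and overlaps from GENCODE M21.

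Groups follow the labelled genotypes. The test was edgeR 4.0.16 under R 4.3.3, with TMM factors and the two-sided, robust quasi-likelihood F test, filterByExpr at a count of 10 and a total of 15, and Benjamini-Hochberg adjustment over 14380 genes. The script was tested on simulated counts, where it called 97 of 100 genes changed 4-fold and 28 of 100 changed 2-fold. Of 14180 unchanged genes it called 9. The changed genes were drawn from tested genes at large, not from the members. A gene that was not called is therefore not shown to be unchanged. Standard errors come from the fold change and F. Means carry the SD of 3 livers. Alternatives were RLE and upper-quartile factors, library size alone, DESeq2 1.42.0, limma-voom (limma 3.58.1), no filter, a CPM filter, a replicate block, a covariate for libraries with Y-linked counts, leaving out the 20 genes of highest abundance, and leaving out single libraries.

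No pair of libraries was alike within sampling noise. The labels do not say whether equal replicate numbers mark paired livers. Correlations of same-numbered deviations were 0.08, -0.02 and 0.03, against -0.10 to 0.04 for unlike numbers, and such values cannot exclude pairing. The members, gene lists and tests were chosen with earlier results of these data known. Named members are the 6 called with the largest change per subunit symbol and direction at a mean CPM of at least 5, the 2 highest and 2 lowest per kilobase, 13 members of known role and up to 3 called genes per list, and any other gene named was picked after its values were seen.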

Additional observations from a re-analysis of the deposited data

How the results depend on the processing

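All 18 higher calls held under RLE, upper-quartile and library-size scaling, DESeq2, limma-voom, either filter, the Y-linked covariate and removal of the 20 most abundant genes, and 7 of the 22 called members were called in every alternative. With a replicate block, 15 of the higher and 3 of the lower calls held. Mrpl15, Mrpl54, Mrps18a and Mrpl9 lost theirs in that fit (edgeR adjusted p = 0.0540, 0.0527, 0.0513 and 0.0675). With 1 library left out, members called higher ran from 7 to 21 and lower from 2 to 4, their median from 0.06 to 0.18, large subunit genes from 4 to 14 and from 2 to 4, small subunit genes from 3 to 8, and all genes from 840 to 1932 higher and 518 to 1582 lower. Medians ran from 0.04 to 0.12 for large and from 0.06 to 0.26 for small subunit genes, and from -0.0042 to 0.049 for all genes. Scaling by library size alone called 4810 genes higher and 595 lower with a median of 0.49, members 43 and 0 (0.59), large subunit genes 27 and 0 (0.57) and small subunit genes 16 (0.65). The median of all genes was 0.045 with upper-quartile factors and 0.056 without a filter. The Y-linked covariate called 7 members lower, all 7 large subunit genes. The ratio of large to small levels, Mettl3-deficient over wild type, moved from 0.879 to 0.973 without Mrps2 and Mrps34, a choice made after seeing the data. The cause was not tested.

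For the gene lists, library size alone called 3 other mitoribosomal genes, 14 assembly factors, 6 translation factors, 2 transcription genes, 10 import genes, 4 regulators, 3 mitochondrially encoded genes, 39 cytosolic ribosomal protein genes and 8 respiratory chain genes higher. It called 0 assembly factors, 0 translation factors, 1 transcription gene and 0 respiratory chain genes lower. Upper-quartile factors and DESeq2 each called 2 translation factors higher, and limma-voom and the Y-linked covariate each called 1 assembly factor lower. The replicate block called 1 regulator, 1 import gene and 0 mitochondrially encoded genes higher, and 0 translation factors, 1 transcription gene and 4 respiratory chain genes lower. Regulators called higher were 1 without a filter and 1 with the Y-linked covariate. Mitochondrially encoded genes called higher were 0 without the 20 most abundant genes, and DESeq2 called 5 of them lower and 6 cytosolic ribosomal protein genes higher. Respiratory chain genes called lower were 7 with upper-quartile factors, 31 with DESeq2 and 6 without a filter. With a library left out, the counts higher and lower were 0 to 1 and 0 for other mitoribosomal genes, 3 to 5 and 1 to 2 for assembly factors, 1 and 0 to 1 for translation factors, 0 to 1 and 1 to 2 for transcription, 1 to 3 and 0 for import, 0 to 3 and 0 for regulators, 0 to 1 and 1 for mitochondrially encoded, 0 to 3 and 0 for cytosolic ribosomal protein and 1 to 2 and 1 to 9 for respiratory chain genes.

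Among the members chosen by the naming rule and the called ones, 9 log2 fold changes turned sign under at least 1 alternative, and none of these values was called where a test was run. Library size alone raised all genes together, moving their median from 0.01 to 0.49, so that values less far below 0 turned positive by construction. On that scale Mrpl52 was at 0.45, Mrps17 at 0.37, Mrps21 at 0.23, Mrpl58 at 0.45, Mrps18c at 0.13 and Mrps36 at 0.019. With TMM factors these genes were at -0.03, -0.12, -0.24, -0.03, -0.34 and -0.45, so their direction depended on the scaling. With upper-quartile factors Mrpl52 was at 0.00052 and Mrpl58 at 0.00078. Mrpl11 was at -0.0053 with RLE factors, -0.0055 with DESeq2 and -0.0080 with the Y-linked covariate. With 1 library left out Mrpl52 lay between -0.18 and 0.077, Mrps17 between -0.21 and 0.055, Mrpl58 between -0.085 and 0.031 and Mrpl11 between -0.081 and 0.081. Within libraries with Y-linked counts Mrpl14 was at -0.11, Mrpl11 at -0.17 and Mrpl58 at 0.11, and within those without them Mrpl10 was at -0.018. The 3 livers a group, the unstated strand setting and sex, unbalanced between the groups, limit all values.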
